A study of Homo sapiens with 3 samples.

Results

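Oxidative phosphorylation genes were read in C33A cells, a human cervical carcinoma line, and compared between the 5 enzyme complexes they belong to. The members were chosen by gene name: every gene whose symbol opens as those of NADH dehydrogenase (NDUFA, NDUFAB1, NDUFB, NDUFC, NDUFS, NDUFV), succinate dehydrogenase (SDHA to SDHD), cytochrome bc1 (UQCR, CYC1), cytochrome c oxidase (COX4 to COX8) or ATP synthase (ATP5). They number 83 of the 18417 genes that had a probe set of their own, with 35 in complex I, 3 in complex II, 9 in complex III, 17 in complex IV and 19 in complex V. By name the rule also takes in 6 genes that are not subunits, namely NDUFV1-DT, UQCRBP1, COX7A2L, ATP5F1EP2, ATP5IF1 and ATP5MGL, so 77 members are subunits. Each of 3 separately grown cultures gave total RNA for a single Affymetrix whole-transcript array. The cells were untreated and in exponential growth in medium with serum, so there is 1 condition and neither a control nor a treated group. Levels are log2 intensities after Robust Multichip Average normalization by the authors.

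Oxidative phosphorylation takes place in the inner mitochondrial membrane. Complexes I and II take electrons from NADH and succinate, complex III passes them to cytochrome c and complex IV to oxygen, while complexes I, III and IV pump protons whose return through complex V drives ATP synthesis. Most subunits are encoded in the nucleus, and the remainder, which include the catalytic core of complex IV, in mitochondrial DNA. The mitochondrially encoded subunits are not analysed here, so the levels below are those of nuclear genes. The transcript level of a subunit is not the amount of its complex.

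Over all probe sets, the pairs of arrays had a Pearson's r of 0.993 to 0.994. The signal of a probe set depends on its sequence as well as on its transcript, so the order of single genes is approximate and no fold between genes is given. Since no detection call comes with the values, background was read from 459 genes of silent families (olfactory and taste receptors, keratin-associated proteins, beta-defensins). Their median was 4.05 and their 95th percentile 6.42, here called the silent bound. Of the epithelial markers examined, 2 of 7 were above that bound, KRT18 at 7.75 and KRT14 at 6.86, while EPCAM at 4.52 and CDH1 at 4.95 were below it. Of the fibroblast markers 2 of 5 were above it, COL3A1 at 11.36 and COL1A1 at 7.24, while DCN at 3.10 and LUM at 2.52 were among those below. Of the leukocyte markers 2 of 4 were above it, PTPRC at 8.82 and CD68 at 6.90, while CD3E at 4.59 was among those below. No endothelial or testis marker was above it. What these markers have to do with the levels below was not tested.

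Most members were among the strongly expressed genes of these cells. Of the 83 members, 54 (65.1%) had a mean level above 9.01, the lower bound of the highest 20.0% of measured genes, so the background share for this count is 20.0%. The highest 10% held 37 members. The silent bound was passed by 74 members, against 56.4% of all measured genes, and 9 members were at or below it. The median of the members was 9.55 ± 0.02 (SD over the arrays, n = 3), and that of all measured genes was 6.91 ± 0.01.

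The cultures differed little in these genes. The median SD between arrays was 0.06 log2 for the members and 0.08 for all measured genes, and the SD was under 0.1 in 65 members. Against genes of the same decile of level, the SD of a member was in the median 1.02 times the decile's median SD. The member that varied most in each complex was NDUFB6 in complex I (SD 0.14), SDHC in II (0.10), UQCRH in III (0.23), COX7B in IV (0.22) and ATP5MGL in V (0.29). COX7B read 7.60, 7.89 and 8.04 on the 3 arrays, and UQCRH 7.98, 7.75 and 7.51. The array with the lowest COX7B had the highest UQCRH.

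**Figure D1:**
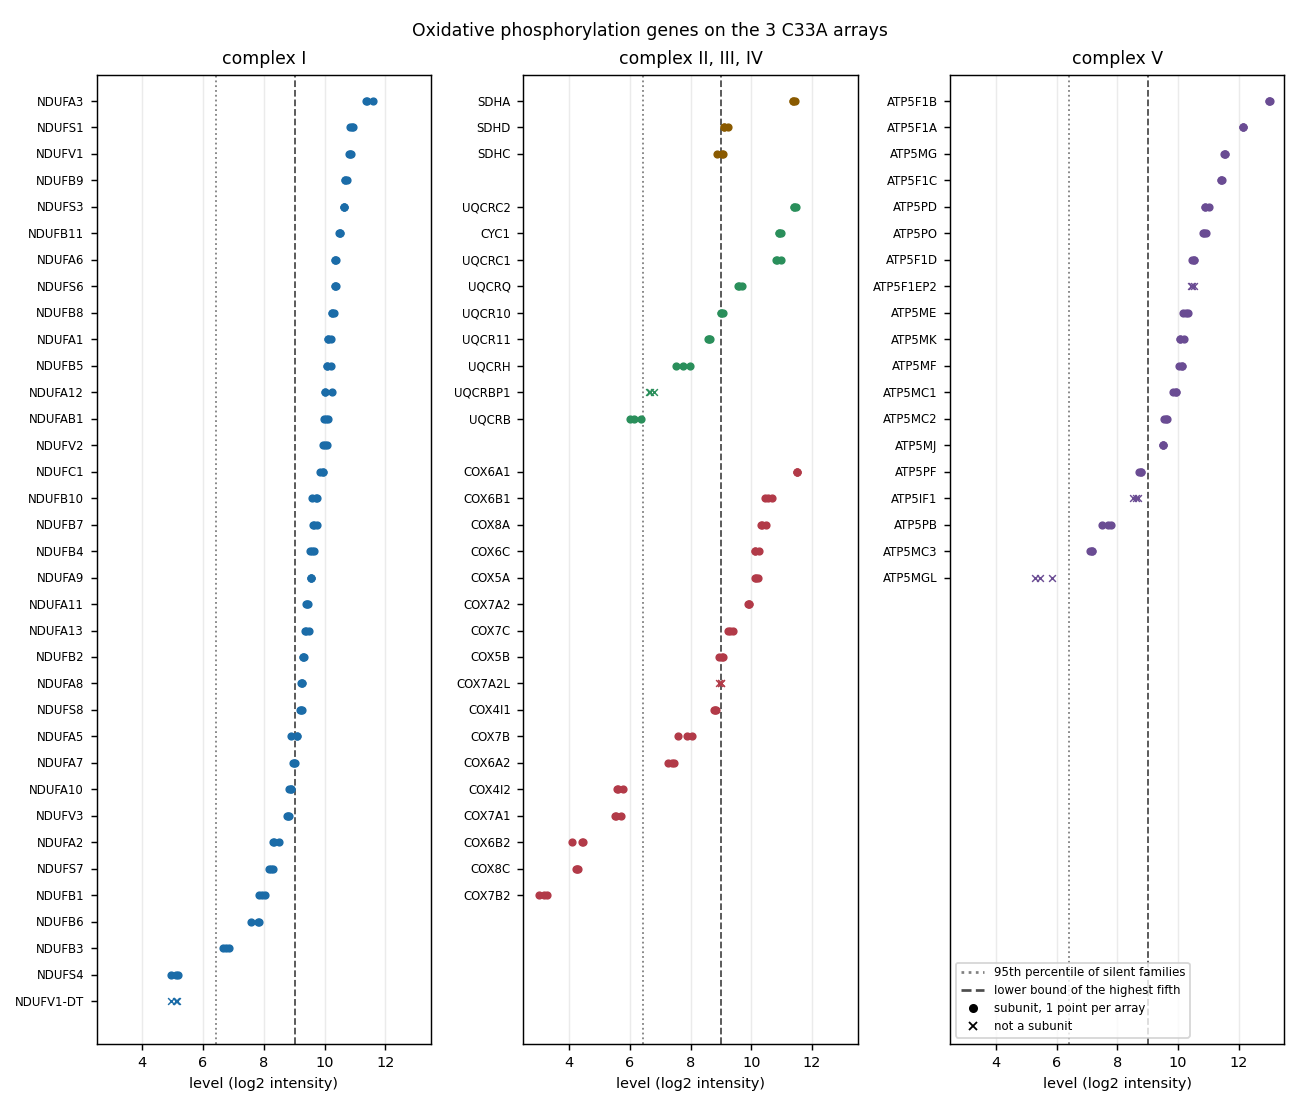
Level of each of the 83 members on the 3 C33A arrays, 1 point per array, by complex and ordered by mean level (x axis, log2 intensity). The dashed line is the lower bound of the highest 20.0% of genes (9.01), the dotted line the silent bound (6.42), and crosses are members that are not subunits. ATP5F1B stands highest and COX7B2 lowest, and the points of a gene mostly overlap.

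The complexes were compared by the median over their genes, taken on each array. ATP synthase, complex V, had the highest median, 10.12 ± 0.07 (SD, n = 3 arrays), followed by complex I with 9.58 ± 0.02 and complex II with 9.15 ± 0.08. Complexes III and IV were lowest, with 9.02 ± 0.03 and 8.98 ± 0.04. Complex V read 10.11, 10.19 and 10.06 on the 3 arrays and complex I 9.60, 9.57 and 9.56. On every array the median of V was therefore above that of I, and the array medians of these complexes did not overlap. The levels of their genes did, from 5.07 to 11.46 in I and from 5.54 to 13.00 in V.

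Of the 10 differences between complexes, 9 had the same sign on all 3 arrays, from 0.13 ± 0.05 log2 for II minus III to -1.14 ± 0.04 for IV minus V. The difference of III minus IV was 0.04 ± 0.04, with both signs among the arrays, so these neighbours did not differ beyond their spread. An exact two-sided sign-flip permutation test over 3 arrays cannot give less than p = 0.25, which these 9 pairs reached (0.278 after Benjamini-Hochberg adjustment over the 10 pairs), and III minus IV had an exact p of 0.5. That floor is set by the number of arrays, so the test says nothing about the size of the differences, which are given with their SD between arrays.

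The order of the complexes depended on which genes and probe sets were counted. Complex IV contains 6 isoforms that are known to be restricted to certain tissues, and without them its median was 9.91, above those of complexes I, II and III. Complex II rests on 3 genes, and with the highest probe set of each gene in place of the mean it stood at 9.93, above complex I. With only genes on 1 probe set it was SDHA alone, at 11.39, above complex V. In the highest 20.0% of genes were 25 members of complex I, 2 of II, 5 of III, 8 of IV and 14 of V.

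**Figure D2:**
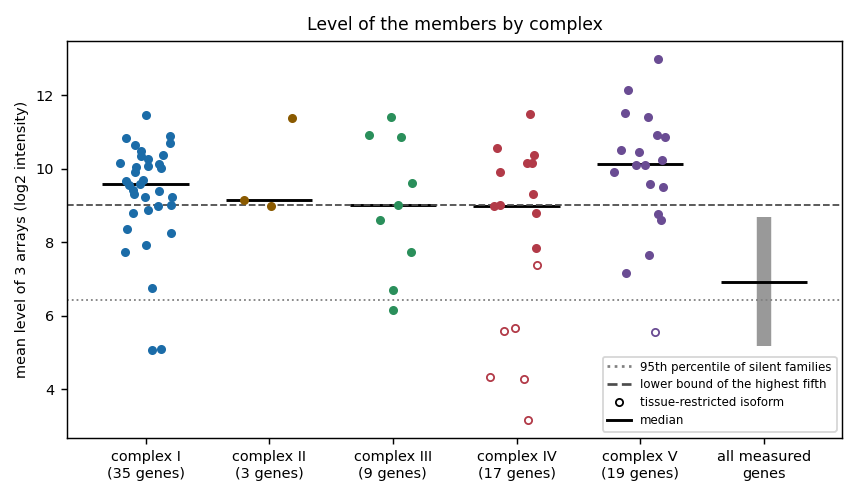
Mean level of each member over the 3 arrays by complex (y axis, log2 intensity, 1 point per gene) with the median of each complex as a bar, and at the right the median and interquartile range of all 18417 measured genes. Open circles are tissue-restricted isoforms; they form the lower part of complex IV, whose other members lie from 7.84 to 11.50, and ATP5MGL is the open circle of complex V.

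The highest members belonged to the catalytic head of ATP synthase. ATP5F1B, the beta subunit that carries the catalytic sites, lay between 12.98 and 13.02 on the 3 arrays, and ATP5F1A, the alpha subunit, between 12.13 and 12.14. Both lay in the highest percent of all measured genes, and they were the only members to do so. ATP5F1C, the gamma subunit of the rotating central stalk, had a mean of 11.42 ± 0.03 (SD, n = 3) and ATP5F1D, the delta subunit, 10.50 ± 0.04. The 4 genes of the head and central stalk had a median of 11.78.

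The other parts of complex V were lower. The median was 10.11 for the 5 small membrane subunits, led by ATP5MG (subunit g) with 11.53 ± 0.01, and 9.81 for the 4 subunits of the peripheral stalk, which holds the head still against the rotor. Within that stalk ATP5PD (subunit d, 10.93) and ATP5PO (the subunit that joins stalk and head, 10.86) were above ATP5PF (8.76) and ATP5PB (subunit b, 7.65). The c-ring, the proton-driven rotor, is made of one protein that 3 genes encode with different targeting peptides. These genes, ATP5MC1, ATP5MC2 and ATP5MC3, read 9.90 ± 0.05, 9.58 ± 0.05 and 7.15 ± 0.04, and their values did not overlap. ATP5IF1, an inhibitor that binds the enzyme when it runs in reverse, was at 8.60 ± 0.07, the pseudogene ATP5F1EP2 at 10.47 and the ATP5MG-like gene ATP5MGL at 5.54, under the silent bound. Transcripts of near-identical copies can hybridize to the same probes, and which gene gives the signal of the ATP5F1EP2 probe set was not tested.

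Complex I, which oxidizes NADH, had its highest level in NDUFA3, a small accessory subunit of the membrane arm, at 11.37, 11.59 and 11.41. The conserved core subunits of the matrix arm, which carry the flavin and the iron-sulphur clusters, had a median of 10.33 over 6 genes, and 5 of these were in the highest 20.0%. They were NDUFS1 (10.89 ± 0.05), the subunit with most clusters, NDUFV1 (10.85 ± 0.04), which binds NADH and the flavin, NDUFS3 (10.64 ± 0.01), NDUFV2 (10.02 ± 0.06) and NDUFS8 (9.23 ± 0.03). The remaining core gene, NDUFS7, was at 8.24 ± 0.07. The 28 accessory subunits had a median of 9.57, with 20 in the highest 20.0%. By position the arms were close, with a median of 9.56 over 15 genes of the matrix arm and 9.67 over 19 of the membrane arm.

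The lowest subunit gene of complex I was NDUFS4, an accessory subunit of the matrix arm, with 4.96, 5.19 and 5.10, all under the silent bound. Its 2 probe sets differed by 1.99 log2, with means of 6.08 and 4.09, and both were under the bound. NDUFB3 was next with 6.76 ± 0.11, above the bound on every array. NDUFV1-DT, a non-coding transcript that starts opposite NDUFV1, was at 5.07 ± 0.11. The 2 probe sets of NDUFB4 hold identical values and therefore count as a single reading.

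Complex II is both the succinate dehydrogenase of the citric acid cycle and an entry point for electrons. SDHA, its flavoprotein, read 11.37, 11.42 and 11.38, while the membrane anchors SDHD and SDHC were at 9.15 ± 0.08 and 8.99 ± 0.10. SDHA was above both anchors on every array. The anchors' values depend on the probe set, since those of SDHC had means of 8.05 and 9.92 and those of SDHD 8.52 and 9.79.

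By probe sets that name a single gene, the core proteins and the haem protein of complex III were above the small subunits. UQCRH also shares a probe set with UQCRHL and GNA13, which read 10.90 ± 0.08 and is left out of this comparison. UQCRC2 was at 11.42 ± 0.03, UQCRC1 at 10.88 ± 0.09 and CYC1, cytochrome c1, which hands the electron to cytochrome c, at 10.93 ± 0.04. The 5 small subunits had a median of 8.61, from UQCRQ at 9.61 ± 0.07 and UQCR10 at 9.02 ± 0.03 to UQCRH, the hinge protein, at 7.75 ± 0.23. The lowest was UQCRB, known as the quinone-binding protein, at 6.17 ± 0.18, with no array above 6.36 and thus each under the silent bound. Its pseudogene UQCRBP1 was at 6.69 ± 0.09, and transcripts of near-identical copies can hybridize to the same probes.

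Complex IV showed the widest spread, from 3.17 to 11.50. Several of its subunits exist as pairs of genes, a broadly expressed form and a form known from heart and skeletal muscle, lung or testis. The 11 other members had a median of 9.91, with 8 in the highest 20.0%, and the 6 tissue-restricted forms had a median of 4.95, with none in it. In each of the 6 pairs the broadly expressed gene was higher on all 3 arrays. That direction is the one by which the isoforms are classed, and levels of different probe sets are compared only by rank.

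COX6A1 read 11.52, 11.49 and 11.49 and its muscle form COX6A2 7.39, 7.27 and 7.44. COX6A2 was the only restricted form above the silent bound. COX7A2 was at 9.91 ± 0.01 and its muscle form COX7A1 at 5.59 ± 0.10, and COX4I1, a regulatory subunit, was at 8.80 ± 0.02 with the lung form COX4I2 at 5.65 ± 0.10. The testis forms were lowest, with COX6B2 at 4.32 ± 0.20 against 10.57 ± 0.12 for COX6B1, COX8C at 4.27 ± 0.03 against 10.39 ± 0.08 for COX8A, and COX7B2 at 3.17 ± 0.13 against 7.84 ± 0.22 for COX7B. Of the muscle markers MYH7, ACTN2, CKM and DES, 1 was above the silent bound (DES, 6.90 ± 0.01), and of the 5 testis markers none was.

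**Figure D3:**
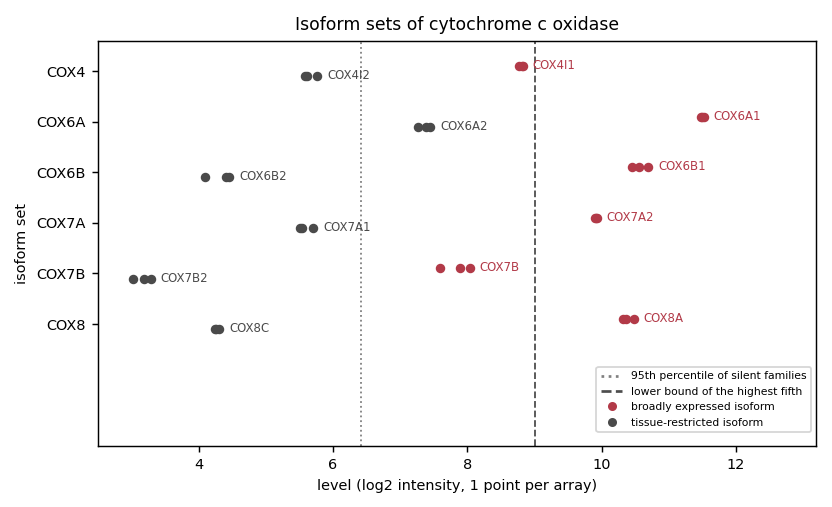
Isoform sets of cytochrome c oxidase, with the level on each of the 3 arrays (x axis, log2 intensity) for the broadly expressed gene in red and the tissue-restricted gene in grey. Within each set the groups of points are separate, and only COX6A2 among the restricted forms lies right of the dotted silent bound at 6.42.

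The remaining subunits of complex IV without a paired form were COX6C (10.17 ± 0.09), COX5A (10.16 ± 0.06), COX7C (9.32 ± 0.08) and COX5B (9.01 ± 0.08). COX7A2L, which joins complexes III and IV into supercomplexes, was at 8.99 ± 0.04. COXFA4, long listed as the complex I subunit NDUFA4 and now placed with complex IV, is not matched by the naming rule and was at 10.13 ± 0.02, and its relative COXFA4L2 was at 6.01 ± 0.18.

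Genes that work with the complexes were described in the same way. Of 50 assembly factors listed, 43 were measured, and their median was 8.46 ± 0.02 (SD over 3 arrays), from TMEM126B, a complex I factor, at 6.70 to OXA1L, the membrane insertase, at 10.85. All 43 were above the silent bound and 14 were in the highest 20.0%. The 71 broadly expressed subunits had a median of 9.90. Enzymes of the citric acid cycle and its pyruvate entry had a median of 9.72 ± 0.01 over 16 genes, with 15 in the highest 20.0%, from PC (pyruvate carboxylase, 7.50) to MDH2 (mitochondrial malate dehydrogenase, 11.90). Carriers and other electron donors had a median of 9.50 ± 0.04 over 14 genes, from GPD2, the mitochondrial glycerol phosphate dehydrogenase, at 3.56 to VDAC3, an outer membrane channel, at 11.67.

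The regulators of the pathway differed widely. PPARGC1A, the coactivator known for inducing mitochondrial genes in muscle, brown fat and fasted liver, read 3.30, 3.40 and 3.38, under the silent bound. Its relatives PPARGC1B and PPRC1 were at 6.95 ± 0.17 and 9.22 ± 0.13. The DNA-binding factors were all above the bound, with NRF1 at 7.78 ± 0.06, GABPA at 8.55 ± 0.22, its partner GABPB1 at 9.05 ± 0.14, ESRRA at 8.15 ± 0.05, YY1 at 10.17 ± 0.09 and SP1 at 9.71 ± 0.03. The mitochondrial transcription proteins TFAM, TFB2M and POLRMT were at 9.50 ± 0.04, 8.67 ± 0.01 and 9.94 ± 0.06, HIF1A was at 10.91 ± 0.01 and MYC at 9.73 ± 0.11.

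**Figure D4:**
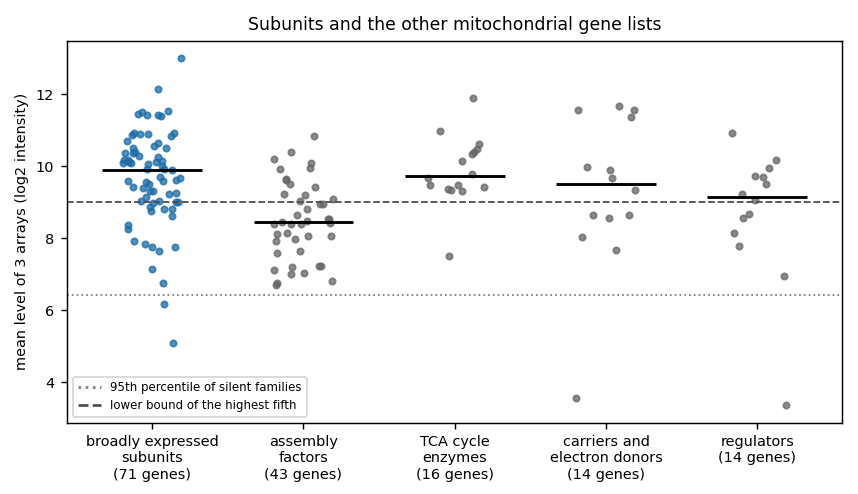
Mean level over the 3 arrays (y axis, log2 intensity, 1 point per gene) of the 71 broadly expressed subunits and of 4 lists of genes that work with them, with medians as bars. The assembly factors have the lowest median, 8.46, and the lowest points of the carriers and of the regulators are GPD2 (3.56) and PPARGC1A (3.36).

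The study mapped the promoters bound by the chromatin remodeller CHD8 in this cell line by ChIP-chip, and its list of target genes was set beside the members. On that list were 25 of the 83 members (30.1%), against 9.63% of all measured genes. Among genes of the highest 20.0%, 25.1% of all genes and 18 of the 54 members were listed. Outside it, 5.77% of all genes and 7 of the 29 members (24.1%) were listed. By complex, the list held 12 genes of I, none of II, 2 of III, 5 of IV and 6 of V. It held ATP5F1B, ATP5F1A, NDUFA3 and UQCRC2, and also NDUFS4 and NDUFB3 at the low end. Absence from the list does not show absence of CHD8, and these shares were not tested.

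The start regions of the members were read for motifs of factors known for this pathway. RefSeq start windows (GRCh38.p14, 250 bases before to 50 after a start) were at hand for 68 of the 83 members. On both strands the windows were searched for the letters GCGCANGCG (nuclear respiratory factor 1, NRF1), CCGGAAGT (the ETS family, with GABPA), AAGATGGCG (YY1), GGGCGG (SP1), TGACGTCA (CREB) and TTTNNCGC (E2F). A match is a run of letters in the reference genome and no evidence of binding in these cells. The printed stretches end at the base before the start site and are printed 5′ to 3′ on the strand of the gene, with matches to the NRF1, ETS or YY1 letters that end before the start in capitals. A further NRF1 match of NDUFB4 and an ETS match of COX5B run across the start and stand in lower case.

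The region upstream of SDHA, chr5:218154-218319 (+), is shown because it is the whole stretch between SDHA and the divergent gene CCDC127 and holds 4 NRF1 matches:
SDHA: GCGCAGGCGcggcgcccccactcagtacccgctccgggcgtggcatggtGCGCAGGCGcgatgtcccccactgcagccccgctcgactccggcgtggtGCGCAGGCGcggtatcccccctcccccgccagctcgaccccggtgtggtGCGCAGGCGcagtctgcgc
The matches are spaced by 49 bases, and at a shift of 49 bases 80 of 117 bases (68.4%) are identical, the highest share of the shifts from 20 to 80 bases.

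Further stretches with NRF1 matches are shown for the highest complex I gene, NDUFA3, at chr19:54102775-54102854 (+), for NDUFB4 at chr3:120596171-120596335 (+), for the core protein UQCRC1 at chr3:48609647-48609706 (-) and for the gamma subunit ATP5F1C at chr10:7788117-7788176 (+). In NDUFB4 and in ATP5F1C, 1 site reads the same on both strands and was found on each.
NDUFA3: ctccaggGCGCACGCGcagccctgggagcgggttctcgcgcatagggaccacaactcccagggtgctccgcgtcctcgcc
NDUFB4: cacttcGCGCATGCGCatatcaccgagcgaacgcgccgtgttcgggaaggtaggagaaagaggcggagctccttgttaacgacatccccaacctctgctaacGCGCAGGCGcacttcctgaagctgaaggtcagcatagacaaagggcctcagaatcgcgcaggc
UQCRC1: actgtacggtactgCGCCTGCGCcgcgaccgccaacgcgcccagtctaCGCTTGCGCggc
ATP5F1C: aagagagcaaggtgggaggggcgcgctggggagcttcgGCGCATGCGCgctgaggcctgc

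The ETS letters are shown in COX5B at chr2:97646002-97646061 (+) and in UQCRQ at chr5:132866582-132866641 (+), the YY1 letters in ATP5PF at chr21:25735055-25735121 (-), and COX4I1 at chr16:85799635-85799694 (+) is a stretch with none of the 3.
COX5B: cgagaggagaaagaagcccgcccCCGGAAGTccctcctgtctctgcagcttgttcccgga
UQCRQ: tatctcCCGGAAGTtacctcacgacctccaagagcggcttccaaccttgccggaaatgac
ATP5PF: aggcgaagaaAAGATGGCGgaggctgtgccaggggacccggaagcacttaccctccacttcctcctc
COX4I1: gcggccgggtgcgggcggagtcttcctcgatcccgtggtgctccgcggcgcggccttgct

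NRF1 letters were found in 23 of the 68 members (33.8%), against 13.0% of the measured genes with a window and 22.5% of those in the highest 20.0%. The ETS letters were in 12 members (17.6%, against 7.14% and 13.1%) and the YY1 letters in 8 (11.8%, against 3.36% and 7.32%). At least 1 of these 3 motifs was in 36 members (52.9%, against 21.2% and 37.9%). SP1 letters were in 60.3% of the members, which is less than the 65.9% and 79.0% of the comparison groups, and E2F letters were in 14.7%, against 11.0% and 15.2%. CREB letters were in 4 members (5.88%), against 3.11% and 4.45%. Median GC content of the windows was 59.8% for the members, 62.7% for measured genes and 65.0% for the highest 20.0%. None of these shares was tested.

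The motifs were spread unevenly over the complexes. ETS letters were in 2 of 33 genes of complex I, 1 of 2 of II and 3 of 6 of III. They were also in 2 of 14 genes of IV and 4 of 13 of V. E2F letters were in 4 of 33 genes of complex I, 4 of 14 of IV and 2 of 13 of V. No gene of II or III with a window had E2F letters. Of the 14 genes of complex IV with a window, 4 are tissue-restricted isoforms. NRF1 letters were in 10 of 33 genes of complex I, both genes with a window of complex II, 3 of 6 of complex III, 6 of 13 of complex V and 2 of 14 of complex IV, where they were in COX6A1 and COX8C. The YY1 letters were in 6 genes of complex I, and 7 of the 9 matches began 11 to 26 bases after the start, while the other two are 1 site of ATP5PF seen from 2 starts. The members with NRF1 letters had a median level of 9.58 and those without 9.40. Among all measured genes these medians were 8.57 and 6.86.

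A start of a coding gene on the opposite strand within 1000 bases was present for 24 of the 68 members (35.3%), against 12.8% of measured genes and 18.7% of the highest 20.0%. Such neighbours were found for 12 of 33 genes of complex I, 7 of 13 of complex V and 3 of 6 of complex III, and for 1 of 14 of complex IV, COX4I1 with EMC8. The complex I count includes the non-coding NDUFV1-DT, whose neighbour is by definition NDUFV1. ATP5PF starts 68 bases from GABPA, the factor that binds the ETS letters, and they read 8.78, 8.72 and 8.78 against 8.80, 8.40 and 8.45 on the 3 arrays. Ribosomal protein gene RPS28, next to NDUFA7 (8.99 ± 0.04), was at 12.19 ± 0.04, and CCDC127, next to SDHA, was at 8.64 ± 0.06. This comparison was chosen after seeing the data and was not tested.

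**Figure D5:**
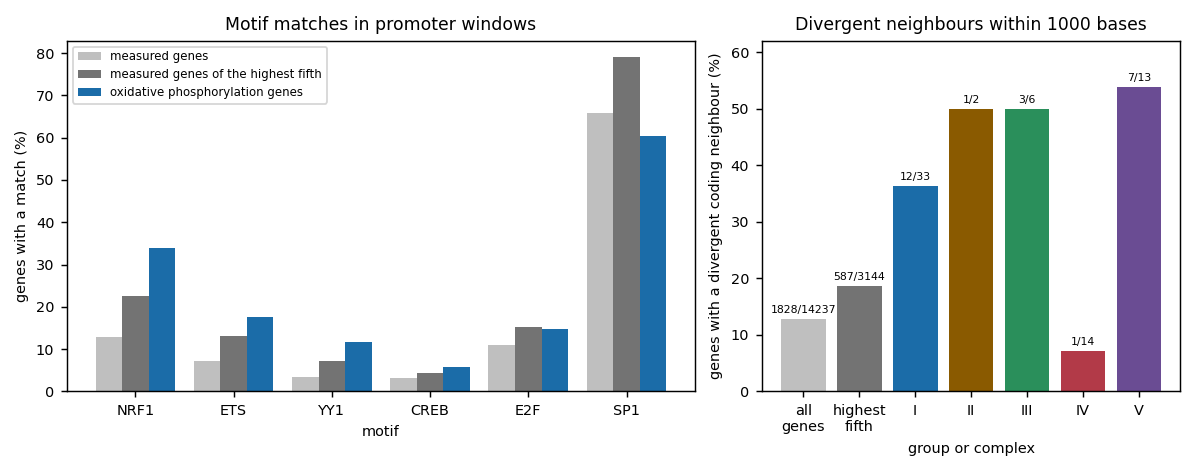
Left, percent of genes with a motif match in a start window (y axis) for all measured genes, those of the highest 20.0% and the 68 members with a window; right, percent of genes with a divergent coding neighbour within 1000 bases, for the same comparison groups and each complex, with the counts above the bars. NRF1 letters reach 33.8% of the members against 13.0% of measured genes, and complex IV has 1 divergent neighbour in 14 genes.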

How the data were processed

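Levels were taken from 3 arrays of C33A cells (1 group). Per the labels and methods, the authors scanned and read the arrays with the maker's software, applied Robust Multichip Average and deposited log2 intensities. The sources used here do not state the software versions. RMA gives all arrays 1 common distribution, so an equal change of all genes would not be seen. Of 33297 probe sets, 19460 name 1 gene and were used, 1754 name several and 12083 none. Symbols came from the platform annotation and were updated through RefSeq (18389 of 18417 genes found), and levels were averaged where a gene had more than 1 probe set (769 genes, 7 of them members). The number of arrays limits the precision. With 3 arrays, an exact two-sided sign-flip permutation test cannot give less than p = 0.25. Its p-values therefore do not measure the spread between these cultures, which is given as SD. Some genes of the pathway are not analysed here.

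The members and lists were chosen with earlier results of these data known. Genes named in full are core catalytic subunits, the 3 highest and 3 lowest of each complex, isoform sets, members with probe sets over 1 log2 apart or with the largest SD of their complex, the highest and lowest of each other list, and the regulators; others stand for their role or neighbour. The list of CHD8 targets, complete in the copy used, was matched by accession, symbol and synonym. The lists, roles and tissue-restricted forms follow textbook knowledge. Alternatives changed the probe sets, members, summary, array scaling, bounds, matching and left out each array. On simulated arrays of 18417 genes, 100 of 100 planted complex medians were recovered within 0.1 log2. The genes of each simulated complex were spread evenly around the planted median. This checked the computation only, and not the uneven levels of the real complexes. Promoter sequences are from RefSeq (GRCh38.p14), and motif shares count a gene once over all its windows; divergent neighbours and GC content were added after seeing the data. Computations ran in Python 3.11.15 with pandas 2.3.3, SciPy 1.17.1 and NumPy 2.4.6, and plots in matplotlib 3.10.9.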

Additional observations from a re-analysis of the deposited data

Results flagged for a closer look

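Probe sets that name several genes were left out of all levels above, and 8 of those that name a gene of these families gave a mean signal over the 3 arrays above the silent bound of 6.42. Which of their genes gives the signal cannot be told apart. Complex I genes are on the probe set 7900228, shared by NDUFS5, SNORA70, RPL10 and DNASE1L1 (11.83 ± 0.09, SD, n = 3), and on 7950644, shared by NDUFC2 and a readthrough with KCTD14 (10.63 ± 0.03). SDHA shares 8084912 (9.89 ± 0.08) and 8093039 (10.56 ± 0.02) with its pseudogenes SDHAP1, SDHAP2 and SDHAP3. UQCRH, at 7.75 on its own probe set, shares 7912670 with UQCRHL and GNA13 (10.90 ± 0.08). ATP5F1E, the epsilon subunit of ATP synthase, is on 8067288 with the readthrough SLMO2-ATP5E (10.29 ± 0.05). The readthrough of ATP5MF and PTCD1 is on 8134613 with ZNF789 and PTCD1 (7.05 ± 0.10) and on 8141283 with PTCD1 (8.27 ± 0.04).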

How the results depend on the processing

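With the highest probe set of each gene the median was 9.93 for complex II and 10.25 for V, and I minus II turned to -0.35. With only genes on 1 probe set, complex II was SDHA alone at 11.39 and IV stood at 8.89, I minus II was -1.80 and II minus V 1.22. With only subunits counted, the medians were 9.61 for I, 9.31 for III, 8.91 for IV and 10.19 for V, and II minus III was -0.16. Without tissue-restricted isoforms, IV was 9.91 and V 10.19, and I, II and III minus IV were -0.34, -0.76 and -0.90. With the mean over genes in place of the median, I was 9.33, II 9.84, IV 8.06 and V 9.90, and I minus II was -0.52. The shifts before the last follow from the genes or probe sets counted, and the last from the summary. Complex V was above I, III and IV in every alternative.

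Leaving out each array in turn, the medians ranged from 9.57 to 9.59 for I, 9.11 to 9.18 for II, 9.00 to 9.03 for III, 8.97 to 9.01 for IV and 10.09 to 10.15 for V, the members in the highest 20.0% from 52 to 54, and those above the silent bound stayed at 74. The highest 10% of measured genes held 37 members. With the 99th percentile of the silent families as bound, 66 members were above it. The share of all measured genes above that bound is not given here, so this count has no background beside it. Matching the CHD8 list by symbol as written found 19 members in place of 25. Counting COXFA4 and COXFA4L2 with complex IV, and shifting the arrays to a common median, moved no median of a complex beyond its SD. Of 100 alternative values of the differences between complexes, 92 kept their sign. These include the values under the array shift, which cannot change a difference within an array. They also include the values with COXFA4 and COXFA4L2 counted, which left every difference as it was. No paired analysis was possible because all samples belong to 1 group. The number of arrays, 3, and the dependence of signal on probe sequence limit every comparison between genes.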

Other observations

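The members lie on 23 chromosomes, with 11 of the 83 (13.3%) on chromosome 19, which holds 7.11% of all measured genes. This count was made after seeing the data and was not tested.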
